A study of Mus musculus with 2 samples.

Results

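The 6 genes described here encode proteins of the extracellular matrix or, in the case of gelsolin, of its cells: fibrillin 1 (FBN1), versican (VCAN), fibulin 1 (FBLN1), the laminin alpha 2 chain (LAMA2), decorin (DCN) and gelsolin (GSN). They were chosen by gene symbol, and all 6 were found among the 9330 genes of the deposited count tables. Transcripts were counted in single nuclei from the right atria of adult mice of 2 genotypes. One genotype is labeled control and described as wild type, and the other is labeled Tbx5_p.G125R and carries one copy of Tbx5, a T-box transcription factor of the heart, in which glycine is replaced by arginine (Tbx5 G125R/+). For each genotype, 3 right atria were pooled, nuclei were sorted on the DNA dye DAPI and 7000 nuclei were loaded in droplets, so that each genotype is represented by 1 library and no animal can be told from another. The comparison asked in which atrial cell types these genes were counted and whether their levels differed between the libraries. With 1 library per genotype no test between genotypes was possible, and every 95% interval given here covers counting error only, not the difference between animals.

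Fibrillin 1 polymerizes into microfibrils, which carry elastin and hold latent growth factors of the TGF-beta family, and fibulin 1 is a glycoprotein that binds to elastic fibers, to basement membranes and to versican. Versican is a large chondroitin sulfate proteoglycan that binds hyaluronan, whereas decorin is a small leucine-rich proteoglycan that coats collagen fibrils. Laminin alpha 2 is part of the laminin of the basement membrane around muscle cells, which dystroglycan and dystrophin link to the cytoskeleton, and gelsolin severs and caps actin filaments and also exists as a secreted form. In the heart, fibroblasts are known as the main producers of most of these proteins.

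All genes of the tables carry human Ensembl identifiers although the nuclei are from mouse, so each value is a count assigned to that identifier. In the mouse annotation GENCODE M21 (GRCm38), Fbn1 lies at chr2:125300594-125507993 on the minus strand, Vcan at chr13:89655312-89742509 (minus), Fbln1 at chr15:85205949-85286535 (plus), Lama2 at chr10:26980036-27619758 (minus), Dcn at chr10:97479609-97518143 (plus) and Gsn at chr2:35256380-35307892 (plus). All 6 are protein-coding. Vcan is overlapped at its start by the antisense gene Gm4117, Fbn1 by Gm9913 on the opposite strand and Lama2 by the antisense genes 4930579H20Rik and Gm48084, none of which has its symbol in the tables. Whether counting used the strand is not given in the sources used here, so reads of these partners cannot be told apart from reads of the genes. Gsn is overlapped on its own strand by Gm43128 and Lama2 by Gm36962, also without a symbol there, and strand could not separate their reads. Pseudogenes on the opposite strand lie in Vcan and Lama2, and a snoRNA gene in Lama2. No annotated gene overlaps Fbln1 or Dcn.

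The sequences before the starts of Vcan and Fbn1 are shown because VCAN gave the lowest ratio of the 6 genes between the libraries, whereas the ratio of FBN1, counted in the same clusters, had an interval that holds 0. They are the 250 bases before the RefSeq start (GRCm38.p6), on the strand of the gene, with GC boxes (GGGCGG or CCGCCC) in capitals. The RefSeq start of Fbn1 differs from its GENCODE start. The Fbn1 window therefore lies inside the GENCODE span of Fbn1 given above, and inside Gm9913 on the opposite strand.
Vcan, chr13:89742513-89742762 (minus strand): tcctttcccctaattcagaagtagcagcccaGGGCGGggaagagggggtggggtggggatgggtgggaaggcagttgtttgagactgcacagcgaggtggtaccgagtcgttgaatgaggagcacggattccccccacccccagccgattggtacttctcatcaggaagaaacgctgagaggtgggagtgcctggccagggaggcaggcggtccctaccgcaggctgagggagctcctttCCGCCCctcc
Fbn1, chr2:125506439-125506688 (minus strand): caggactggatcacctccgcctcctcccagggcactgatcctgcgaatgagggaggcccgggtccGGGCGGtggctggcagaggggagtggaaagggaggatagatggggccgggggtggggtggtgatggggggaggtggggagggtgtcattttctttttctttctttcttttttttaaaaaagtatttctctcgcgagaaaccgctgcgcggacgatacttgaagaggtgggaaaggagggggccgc
A GC box occurred 2 times before Vcan and 1 time before Fbn1, and 32.7% of all 32851 windows of this length hold one. The half-site of T-box factors, searched as GGTGTGA and its complement TCACACC, was found in 0 of the 8 windows of the 5 genes that matched the RefSeq table, against 3.33% of all windows. These matches describe letters in a short window only.

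The control library holds 3475 nuclei and 560272 counts, and the Tbx5 G125R/+ library 2933 nuclei and 422811 counts. These are shallow profiles, with medians of 118 and 108 genes detected per nucleus, and 365 control and 459 Tbx5 G125R/+ nuclei have fewer than 80 counts. Because a nucleus of this depth shows only a small part of its transcripts, a gene at 0 in a nucleus is not evidence that the nucleus lacks it. TBX5 itself had 13 and 15 counts, in 13 nuclei of each library, and counts per gene cannot show the variant. The deposited cluster labels did not separate the markers. Over the 7 labels with at least 100 nuclei, TTN ranged from 71.8 to 104 counts per 10000 in the control library and COL1A1 from 9.20 to 13.5. Cell types were therefore read from marker counts and from clusters built anew.

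FBLN1 and GSN had enough counts for narrow intervals, and the other 4 genes did not. FBLN1 had 1140 counts in 807 control nuclei (23.2%) and 771 counts in 577 Tbx5 G125R/+ nuclei (19.7%), which is 20.3 (19.2 to 21.6) and 18.2 (17.0 to 19.6) counts per 10000. GSN had 288 counts in 243 nuclei and 160 counts in 147 nuclei, or 5.14 (4.56 to 5.77) and 3.78 (3.22 to 4.42) per 10000. The other 4 genes were counted in 0.835% to 2.56% of the nuclei of a library, with at most 2 counts in a nucleus. FBN1 had 92 control and 78 Tbx5 G125R/+ counts, or 1.64 (1.32 to 2.01) and 1.84 (1.46 to 2.30) per 10000. VCAN had 85 and 33 counts, or 1.52 (1.21 to 1.88) and 0.780 (0.537 to 1.10) per 10000, the only gene of these 4 with intervals that do not overlap. LAMA2 had 70 and 69 counts, or 1.25 (0.974 to 1.58) and 1.63 (1.27 to 2.07) per 10000. DCN rested on the fewest control counts, with 29 and 38 counts, or 0.518 (0.347 to 0.743) and 0.899 (0.636 to 1.23) per 10000. Thinned to 80 counts per nucleus, with shallower nuclei left out, the share of nuclei with FBLN1 was 14.7% in the control and 13.3% in the Tbx5 G125R/+ library, that with GSN 3.78% and 2.97%, and that with VCAN 1.31% and 0.665%.

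Nuclei were first sorted into classes by 3 sets of markers that do not include the 6 genes. The collagen class holds at least 1 count of COL1A1 or COL3A1, the chains of fibrillar collagens that mark fibroblasts. The titin class holds at least 3 counts of TTN, the giant sarcomere protein of cardiomyocytes, and the endothelial class at least 1 count of FLT1 or PTPRB, receptors of vessel lining cells. Nuclei that met more than one condition were kept apart as mixed, and the rest are unmarked. The collagen class had 660 control nuclei (19.0%) and 423 Tbx5 G125R/+ nuclei (14.4%), and the titin class 429 (12.3%) and 454 (15.5%). Only 39 and 43 nuclei were endothelial by these markers, and 2271 and 1964 were unmarked. In the collagen class, 69.2% of the control and 76.8% of the Tbx5 G125R/+ nuclei rest on a single collagen count. COL1A1 or COL3A1 was also found in 19 of 442 control and 37 of 510 Tbx5 G125R/+ nuclei of the cardiomyocyte-like cluster 3 described further on, against 177 of 517 and 115 of 407 in the fibroblast-like cluster 4. The part of such background counts in the collagen class was not tested.

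All 6 genes were higher in the collagen class than in the titin class in both libraries. VCAN was at 3.86 (2.78 to 5.22) counts per 10000 in control collagen nuclei and at 0.178 (0.0216 to 0.644) in control titin nuclei, a 21.7-fold difference (5.63 to 185) that rests on 42 against 2 counts. In the Tbx5 G125R/+ library VCAN gave 13 against 1 count, or 23.5-fold (3.52 to 997). GSN was at 11.7 (9.74 to 13.9) against 1.07 (0.553 to 1.87) per 10000 in the control, 10.9-fold (6.03 to 21.7), and 12.9-fold higher (6.10 to 31.2) in the other library. FBN1 had 38 collagen and 6 titin counts in the control, 6.53-fold (2.74 to 18.9), and 32 against 1 in the Tbx5 G125R/+ library, 57.7-fold (9.64 to 2350.7). DCN had 10 counts in control collagen nuclei and 0 in titin nuclei. Against a floor of 3 counts for the titin class this is 3.44-fold, and the exact lower bound is 2.31-fold. In the other library DCN had 12 against 1, 21.7-fold (3.20 to 925). For these 4 genes the titin class held 0 to 12 counts per library.

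FBLN1 and LAMA2 stood closer in the 2 classes. FBLN1 was at 38.7 (35.1 to 42.6) per 10000 in control collagen nuclei and still at 12.5 (10.5 to 14.7) in control titin nuclei, 3.10-fold (2.56 to 3.78), and at 35.7 and 9.02 in the Tbx5 G125R/+ library, 3.96-fold (3.10 to 5.08). LAMA2 had 20 collagen and 10 titin counts in the control, 2.06-fold with an interval (0.921 to 4.93) that holds 1, and 22 against 11 in the other library, 3.61-fold (1.68 to 8.24). Of the 2554 genes with at least 20 counts in these 2 classes, 26.3% were at least 1.5-fold higher in the collagen class in both libraries, against 6 of the 6 genes here. The 6 genes and the markers were chosen with earlier results of these data known, so this is a description and not a test. In the endothelial class the counts are too few to place the genes: FBN1 had 3 and 1 counts, which is 4.72 and 1.44 per 10000, FBLN1 had 4 and 8, and LAMA2 had 0 in both libraries, which allows up to 5.80 and 5.30 per 10000 (exact Poisson bound).

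**Figure D1:**
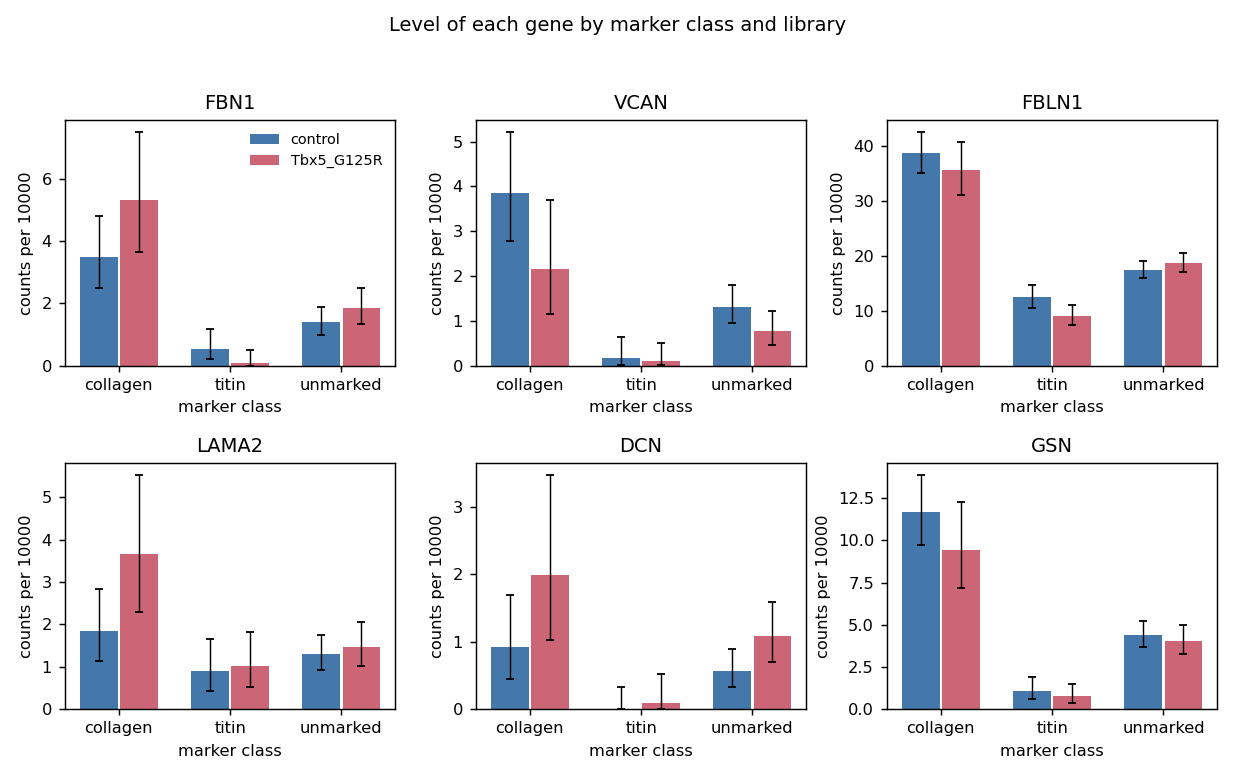
Counts per 10000 of each gene (y axis, linear, own scale per panel) in the collagen, titin and unmarked classes (x axis) of the control (blue) and Tbx5 G125R/+ (red) libraries. Bars are levels over all nuclei of a class and lines are 95% Poisson intervals. Of the 3 classes drawn, the collagen class is highest for all 6 genes, and FBLN1 keeps 12.5 and 9.02 counts per 10000 in the titin class.

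Most counts of each gene still fell outside the collagen class. Unmarked nuclei held 45.7% of the FBN1 counts of the control library and 55.1% of those of the Tbx5 G125R/+ library, and 47.1% and 54.5% of the VCAN counts. They held 54.2% and 54.9% of the counts of all genes. For VCAN the collagen class held 49.4% and 39.4%, against 19.4% and 14.2% of all counts. DCN had the highest unmarked share of the 6 genes, 58.6% and 65.8%.

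Read from the side of each gene, nuclei that held one of the 6 genes carried COL1A1 or COL3A1 more often than nuclei at large. The collagens were found in 21.1% of all control and 16.1% of all Tbx5 G125R/+ nuclei. They were found in 50% (38.6 to 61.4) of the 80 control nuclei with VCAN and in 37.5% (21.1 to 56.3) of the 32 such nuclei of the other library. For FBN1 the shares were 44.9% (34.4 to 55.9) and 39.7% (28.5 to 51.9), for GSN 45.3% (38.9 to 51.8) and 34.0% (26.4 to 42.3), and for FBLN1 36.9% (33.6 to 40.4) and 27.2% (23.6 to 31.0). LAMA2 gave 30% (19.6 to 42.1) and 35.8% (24.5 to 48.5), and DCN 37.9% (20.7 to 57.7) and 32.4% (18.0 to 49.8), of which the control values have intervals that reach the share of all nuclei. Nuclei with a gene were a little deeper, with control medians of 150 to 174 counts against 138 overall. At a fixed depth of 80 counts the expected shares of collagen were 18.5% to 27.2% in the control, against 13.2% over all nuclei, and 16.8% to 27.3% against 10.8% in the Tbx5 G125R/+ library.

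Titin was rarer with VCAN, DCN and GSN than in nuclei at large. At the observed depth the shares with FBLN1 and LAMA2 lay near that of all nuclei, but at a fixed depth the share with FBLN1 was lower. Of all nuclei, 14.3% of the control and 17.0% of the Tbx5 G125R/+ library held at least 3 TTN counts. Of the nuclei with VCAN, 2 of 80 (2.50%, 0.304 to 8.74) and 1 of 32 (3.13%, 0.0791 to 16.2) did. Of those with DCN it was 0 of 29, which allows up to 11.9%, and 1 of 37 (2.70%, 0.0684 to 14.2), and of those with GSN 9.47% (6.10 to 13.9) and 6.12% (2.84 to 11.3). These intervals lie below the share of all nuclei in both libraries, whereas for FBN1 this held only in the Tbx5 G125R/+ library (1.37%, 0.0347 to 7.40) and not in the control (10.1%, 4.73 to 18.3). With FBLN1 the share was 15.2% and 16.3%, and with LAMA2 15.7% (8.11 to 26.4) and 19.4% (10.8 to 30.9), close to the share of all nuclei. The titin class was deeper than the collagen class, with control medians of 243 and 143 counts. After thinning to 80 counts, titin was expected in 4.92% and 5.47% of the nuclei with FBLN1, against 8.25% and 11.4% of all nuclei, and in 5.16% and 8.53% of those with LAMA2, which rest on an expected 35.4 and 36.2 nuclei and cannot be told from all nuclei at this depth. FLT1 or PTPRB was found with LAMA2 in 0 of 70 and 0 of 67 nuclei, which allows a share of up to 5.13% and 5.36%. All nuclei held them at 1.47% and 1.60%, a share that LAMA2 nuclei could have had unseen at this depth.

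**Figure D2:**
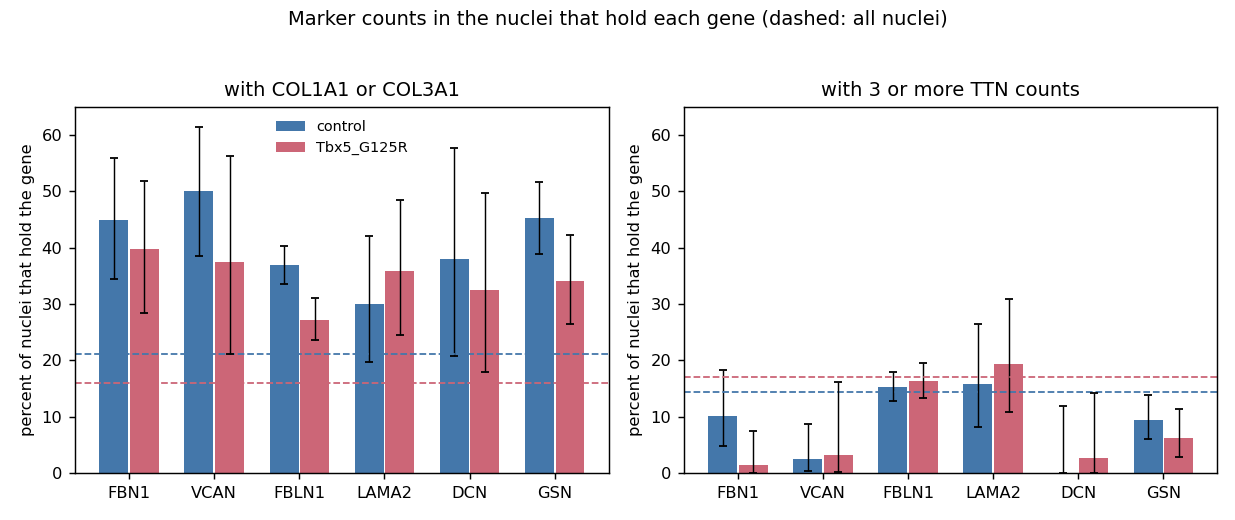
Percent of the nuclei holding a gene (x axis) that also held COL1A1 or COL3A1 (left) or at least 3 TTN counts (right), in the control (blue) and Tbx5 G125R/+ (red) libraries, with 95% binomial intervals. Dashed lines give the share of all nuclei of each library. The 6 genes lie above the lines on the left, and on the right FBLN1 and LAMA2 lie near them while VCAN lies at 2.50% and 3.13%.

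Clusters of nuclei, built from both libraries with the 6 genes kept out of the genes used, placed the unmarked nuclei as well. Clusters 4 (924 nuclei) and 5 (881) were fibroblast-like, by COL1A1, BICC1 and TCF21 with COL3A1 and COL1A2 in cluster 4 and PDGFRA in cluster 5. These are 5 and 4 of the 8 fibroblast markers. Cluster 3 (952) was cardiomyocyte-like with 6 of 8 markers, TTN among them. Cluster 6 (711) was cardiomyocyte-like by 3 of 8 markers, MYH6, TNNI3 and MYL4, but TTN did not pass. It was led by the mitochondrial-like MTRNR2L6 and held COL1A1 at 12.6 per 10000. Its median was 152.5 counts in the control and 74 in the Tbx5 G125R/+ library. Cluster 1 (1164) was endothelial-like by 3 of 9 markers, FLT1, PTPRB and TEK. PECAM1, CDH5, VWF, EMCN, KDR and CYYR1 did not pass. FLT1 was counted in 43 nuclei of this cluster (3.69%). Clusters 2 (1115), led by IKZF1 with the macrophage receptor MRC1, and 7 (661), led by the transcription factor EBF1, did not reach 3 markers of a type and stay unnamed. PDGFRA, the receptor of cardiac fibroblasts, was the 1 fibroblast marker that passed in cluster 7, whose COL1A1 level was 16.9 per 10000, against 22.0 and 19.8 in clusters 4 and 5.

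Over both libraries, the 6 genes were highest in clusters 4, 5 and 7. FBLN1 was at 38.9, 34.7 and 28.6 counts per 10000 there, against 8.92 to 15.5 in the other 4 clusters. FBN1 was at 3.38, 3.58 and 2.93 against 0.263 to 1.65, and VCAN at 2.64, 2.38 and 2.23 against 0.131 to 1.36. GSN was at 9.41, 8.09 and 7.15 against 0.964 to 5.29. In the Tbx5 G125R/+ library alone this order did not hold for VCAN and GSN. VCAN in cluster 2 (9 counts, 1.57 per 10000) was level with cluster 4 (1.58) and above clusters 5 (1.36) and 7 (0.793), and GSN in cluster 6 (5.05) was above cluster 7 (4.76), on few counts. LAMA2 and DCN were highest in cluster 7, at 3.40 (2.28 to 4.88) and 2.58 (1.62 to 3.91) per 10000, against 2.81 and 1.32 in cluster 4 and 2.73 and 1.45 in cluster 5, with intervals that overlap. DCN was among the 10 genes that lead cluster 7 by fold. Against all other clusters together, the fibroblast-like clusters were 2.47-fold to 3.49-fold higher in the control library, from LAMA2 and FBLN1 at the low end to VCAN at the high end (2.23 to 5.49), and 2.62-fold to 3.49-fold higher in the Tbx5 G125R/+ library.

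FBLN1 was counted in nuclei of the cardiomyocyte-like cluster 3, in which FBN1, VCAN and DCN were nearly missing. In cluster 3, FBLN1 had 131 counts in 89 of 442 control nuclei, or 12.1 (10.1 to 14.4) per 10000, and 108 counts in 92 of 510 Tbx5 G125R/+ nuclei. The 3 other genes together had 7 and 3 counts there. For every count of these 3 genes, cluster 3 held 18.7 (8.83 to 47.5) FBLN1 counts in the control and 36 (12.0 to 177) in the Tbx5 G125R/+ library, against 4.12 to 5.60 in the fibroblast-like clusters, whose upper bounds reach 8.15. Per GSN count it held 10.1 (5.69 to 19.4) and 12.0 (6.09 to 27.0) FBLN1 counts, against 3.82 to 4.95, and in the Tbx5 G125R/+ library these intervals overlap. Per COL1A1 count it held 11.9 (6.44 to 24.4) and 4.50 (2.87 to 7.33), against 1.30 to 2.84, where the Tbx5 G125R/+ interval overlaps that of cluster 5 (2.14 to 3.80). In the endothelial-like cluster 1, by contrast, FBLN1 stood at 1.61 (1.16 to 2.25) and 1.93 (1.20 to 3.16) per COL1A1 count, inside the range of the fibroblast-like clusters. In cluster 6, also cardiomyocyte-like, FBLN1 per COL1A1 count was not raised, at 1.15 (0.887 to 1.48) and 1.49 (0.962 to 2.32). Per count of FBN1, VCAN and DCN it was 9.5 (5.47 to 17.9) and 13.8 (5.08 to 52.2) there. Those intervals overlap the ones of the fibroblast-like clusters.

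LAMA2 was also counted in cluster 3, with 9 control and 13 Tbx5 G125R/+ counts, or 0.832 (0.380 to 1.58) and 1.08 (0.577 to 1.85) per 10000. Over both libraries LAMA2 was at 0.964 there against 2.77 in the fibroblast-like clusters, and FBLN1 at 10.5 against 36.8. The endothelial-like cluster held 3 and 1 counts, 0.299 (0.0616 to 0.873) and 0.143 (0.00362 to 0.797). DCN, by comparison, had 0 and 1 counts in cluster 3, and VCAN 2 and 1. GSN was low in cluster 3, at 1.20 and 0.750 per 10000, but was at 5.39 (3.94 to 7.19) and 5.05 (3.00 to 7.99) in cluster 6, where COL1A1 was also raised, so that FBLN1 per GSN count was 2.89 and 3.06.

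**Figure D3:**
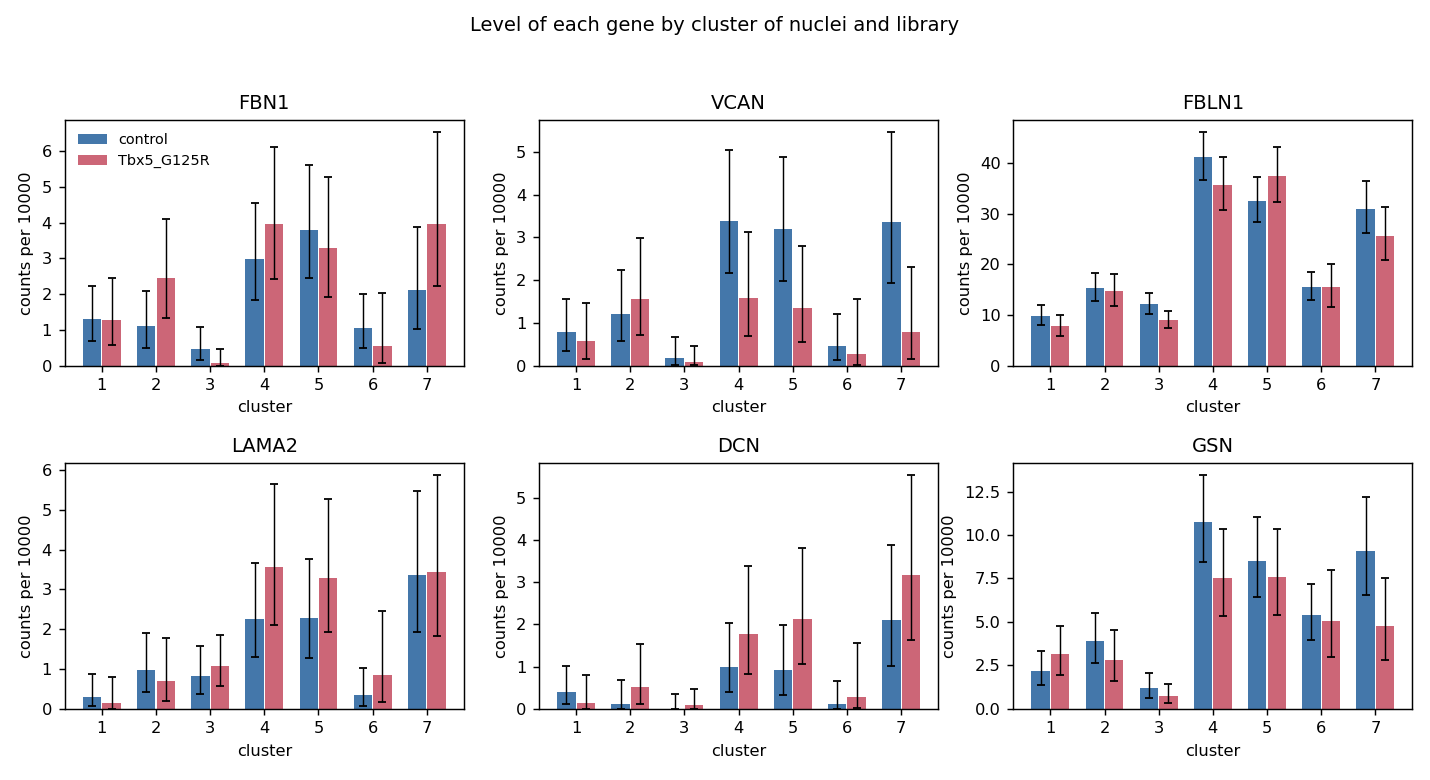
Counts per 10000 of each gene (y axis, linear, own scale per panel) in clusters 1 to 7 (x axis) of the control (blue) and Tbx5 G125R/+ (red) libraries, with 95% Poisson intervals. Clusters 4 and 5 are fibroblast-like, 3 and 6 cardiomyocyte-like and 1 endothelial-like. Every gene is highest in cluster 4, 5 or 7, and the VCAN bars of the Tbx5 G125R/+ library are lower than those of the control in each of these 3 clusters.

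Few nuclei showed more than one of the genes, as depth allows. At least 1 gene was found in 1084 control nuclei and 786 Tbx5 G125R/+ nuclei. At least 2 genes were found in 205 control nuclei (5.90%) and 131 Tbx5 G125R/+ nuclei (4.47%), and in 14.5% and 12.1% of the collagen class, against 3.50% and 1.54% of the titin class. The highest number was 4 genes in 1 nucleus. FBLN1 was the usual partner: it was found in 43.8% of the nuclei with VCAN in either library, in 38.2% and 35.6% of those with FBN1, in 51.7% and 37.8% of those with DCN and in 38.6% and 37.3% of those with LAMA2, against 23.2% and 19.7% of all nuclei. GSN was found in 22.5% and 18.8% of the nuclei with VCAN, against 6.99% and 5.01% of all nuclei. VCAN and DCN, the 2 proteoglycans, were found together in 0 nuclei of either library, and with DCN in 0.835% and 1.26% of all nuclei a lower share could not be detected at this depth. LAMA2 was found in 2 of the 29 control nuclei with DCN, 6.90% against 2.01% of all nuclei. In the Tbx5 G125R/+ library it was found in 7 of the 37 nuclei with DCN, 18.9% against 2.28%. Many pairs were looked at, and this one rests on few nuclei.

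Genes whose counts fell most often in the nuclei holding any of the 6 genes were ranked among 1703 genes with at least 100 counts. FBLN1 was found in 807 of these 1084 control nuclei and in 577 of these 786 Tbx5 G125R/+ nuclei. The ranking therefore mostly describes nuclei with FBLN1. The first 8 were COL5A2, PDGFRA, TCF21, EBF2, COL1A1, PCDH9, PCOLCE and FOXP2. COL5A2 encodes a chain of fibril-forming collagen, PCOLCE an enhancer of procollagen processing and TCF21 a transcription factor of cardiac fibroblasts. Of the COL5A2 counts, 64.2% lay in such nuclei in the control and 49.3% in the Tbx5 G125R/+ library, where all counts together had 35.0% and 28.3% there, a 1.83-fold and 1.74-fold excess. COL3A1 ranked 9, TTN 1255, FLT1 1515 and PTPRB 1680. The points of this ranking share nuclei, depth and library, and the ranking is a description.

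Between the libraries, VCAN was lower in Tbx5 G125R/+ nuclei over all nuclei and in the clusters with the most collagen. With counts scaled to the library totals, the log2 ratio of Tbx5 G125R/+ over control was -0.95 (-1.59 to -0.36) in all nuclei. In the fibroblast-like clusters, 15 Tbx5 G125R/+ and 45 control counts gave 1.47 and 3.30 per 10000 and a log2 ratio of -1.13 (-2.11 to -0.30). The direction was the same in cluster 4 (8 and 24 counts, -1.04), cluster 5 (7 and 21 counts, -1.17) and cluster 7 (3 and 16 counts, -1.91, -4.51 to -0.28). The intervals of clusters 4 and 5 alone hold 0. In cluster 2 the ratio was 0.38 (-1.11 to 1.82), on 9 and 10 counts. In the collagen class, with 13 and 42 counts, it was -0.80 and its interval (-1.86 to 0.09) holds 0. Over all nuclei, 9.48% of the 4028 genes with at least 20 counts were at least 1.5-fold lower and 6.9% at least 1.5-fold higher, and of the 6 genes VCAN was lower and DCN higher past that fold.

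DCN went the other way on few counts. Its log2 ratio was 0.79 (0.06 to 1.55) in all nuclei, and it was above 0 in the fibroblast-like clusters (20 and 13 counts, 1.02, -0.04 to 2.17), the collagen class (12 and 10 counts, 1.10, -0.22 to 2.49) and cluster 7 (12 and 10 counts, 0.58, -0.75 to 1.96). Whether the interval leaves out 0 turned on the nuclei taken. Without the shallow cluster 6, a choice made after seeing the data, the ratio over the remaining nuclei was 0.69 (-0.05 to 1.46). In the fibroblast-like clusters it was 0.89 (0.07 to 1.76) at a cluster resolution of 0.6 and 0.76 (-0.11 to 1.66) with 15 principal components. It was 0.86 (0.05 to 1.71) with cluster 7 added, also chosen after seeing the data. LAMA2 was at 1.84 (1.12 to 2.84) per 10000 in control collagen nuclei and 3.65 (2.29 to 5.53) in Tbx5 G125R/+ collagen nuclei, a log2 ratio of 0.99 (0.05 to 1.94) whose lower bound was -0.01 when libraries were scaled by the median of gene ratios. It was smaller in the fibroblast-like clusters, 0.59 (-0.14 to 1.34), and in all nuclei, 0.39 (-0.12 to 0.89), and was 0.04 (-1.15 to 1.18) in cluster 7. FBN1 had log2 ratios of 0.17 (-0.29 to 0.62) in all nuclei, 0.11 (-0.56 to 0.76) in the fibroblast-like clusters and 0.61 (-0.12 to 1.32) in the collagen class. For FBN1 each of these intervals holds 0.

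FBLN1, the gene with the most counts, gave the narrowest limits. Its log2 ratio was -0.02 (-0.21 to 0.18) in the fibroblast-like clusters and -0.12 (-0.36 to 0.12) in the collagen class. It was -0.16 (-0.29 to -0.02) in all nuclei and -0.43 (-0.81 to -0.05) in the cardiomyocyte-like cluster 3, where 131 control counts faced 108. GSN was lower in all nuclei, by a log2 ratio of -0.44 (-0.73 to -0.16), and in cluster 7, with 43 control and 18 Tbx5 G125R/+ counts, -0.91 (-1.81 to -0.11). Within the fibroblast-like clusters its ratio of -0.35 (-0.78 to 0.06) and within the collagen class its ratio of -0.30 (-0.78 to 0.16) had intervals that hold 0. Other fibroblast-like sets gave intervals that leave out 0, with -0.43 (-0.81 to -0.05) at a resolution of 0.6, -0.39 (-0.80 to -0.0046) with 15 principal components, and -0.48 (-0.86 to -0.12) with cluster 7 added after seeing the data.

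Past 1.5-fold, the 6 genes counted 3 higher and 1 lower in the collagen class and 2 higher and 1 lower in the fibroblast-like clusters. The background was 9.03% higher and 11.4% lower of the 1562 genes of the collagen class, and 8.93% higher and 11.1% lower of the 1971 genes of the fibroblast-like clusters. Higher past that fold were DCN and LAMA2 in both sets and FBN1 in the collagen class, and lower was VCAN. Under median scaling FBN1 fell short of 1.5-fold in the collagen class, at a log2 ratio of 0.55, and LAMA2 in the fibroblast-like clusters, at 0.58. The collagen markers themselves were lower in Tbx5 G125R/+ fibroblast-like nuclei, COL1A1 by a log2 ratio of -0.62 (-0.90 to -0.35) and COL3A1 by -0.34 (-0.67 to -0.02), so that the rule of the collagen class selects differently in the 2 libraries. The Tbx5 G125R/+ nuclei were also shallower, for example in cluster 5, with medians of 132 counts in the control and 120.5 in the Tbx5 G125R/+ library. The part of these differences in the ratios was not tested. The shares of nuclei in clusters 4, 5 and 7 were 14.9%, 13.7% and 10.4% in the control and 13.9%, 13.8% and 10.3% in the Tbx5 G125R/+ library. Cluster 3 took 12.7% and 17.4%. Ratios over all nuclei take in these shares, and the part of the shares in them was not tested.

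**Figure D4:**
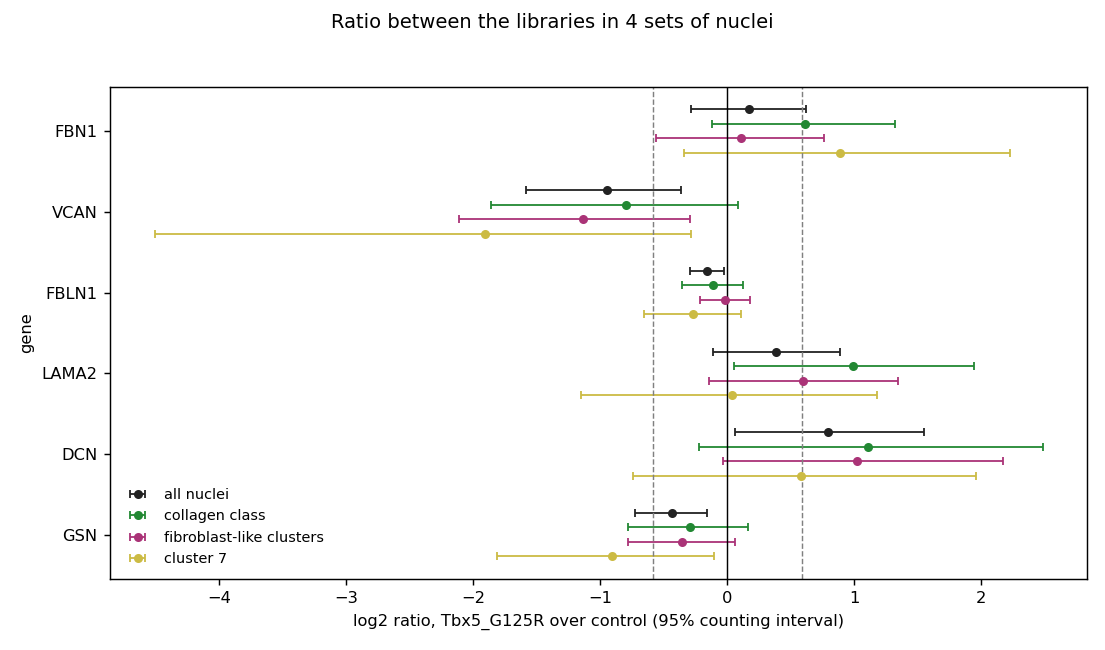
Log2 ratio of Tbx5 G125R/+ over control (x axis) of each gene (y axis) in all nuclei, the collagen class, the fibroblast-like clusters 4 and 5 and the unnamed cluster 7, with 95% counting intervals. Dashed lines mark 1.5-fold. The 4 VCAN points all lie left of the lower line, from -0.80 to -1.91, and the FBLN1 points lie within the lines.

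Genes of the same structures were taken from 5 lists, which hold the 6 genes themselves and were made with earlier results of these libraries known. Counts given next are sums over both libraries. Of all 2554 genes tested, 26.3% were at least 1.5-fold higher in the collagen class in both libraries and 388 genes were as much lower. The microfibril and elastic fiber list takes MFAP1 by its name alone. The place of MFAP1 in these structures was not checked, and the counts and median of the list include it. The list had 7 genes with at least 20 counts in the collagen and titin classes. Of these, 5 were at least 1.5-fold higher in the collagen class in both libraries. Besides FBN1 and FBLN1 these were FBLN5, another fibulin with 23 collagen and 0 titin counts, EFEMP2 (30 and 6) and ADAMTS10, a protease that binds fibrillin (151 and 10). HMCN1, a basement membrane protein of the fibulin family, was instead highest in the endothelial-like cluster 1, at 47.0 per 10000 against 4.80 to 10.4 in the other clusters. Among proteoglycan and hyaluronan genes 9 of 11 were higher in the collagen class in both libraries, VCAN and DCN included. The cell-surface glypican GPC6 had 108 against 8 counts, and PODN, chosen after its values were seen, was lower (2 against 22). Of the basement membrane genes 4 of 4 were higher, LAMA2 included, and the laminin gamma chain gene LAMC1 had 167 against 23 counts. Laminin receptors and linkers lay the other way, with 4 of 6 genes lower in the collagen class in both libraries, among them DMD, which encodes dystrophin (49 against 440 counts), and the sarcoglycan gene SGCD (36 against 246). DMD was at 20.7 per 10000 in cluster 3 and at 2.46 to 3.88 in the other clusters. In the actin-severing list, GSN was the 1 gene of 4 that was higher, and CFL2, the muscle cofilin, had 136 against 380 counts.

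Between the libraries, the median log2 ratio of all 4028 genes was -0.03, with 2155 genes below 0 and 1873 above, and 9.48% past 1.5-fold lower and 6.9% past it higher. The medians of the 5 lists lay between -0.40 and 0.25. The basement membrane list had 6 of 8 genes below 0, 3 of them past 1.5-fold, and a median log2 ratio of -0.35. The 3 genes, with Tbx5 G125R/+ counts first, were COL4A1, a type IV collagen chain (8 and 30 counts, -1.44, -2.84 to -0.34), SPARC, a collagen-binding glycoprotein (16 and 45, -1.06, -2.01 to -0.23), and NTN1, a laminin-related guidance protein (116 and 235, -0.61, -0.95 to -0.29). LAMA2 was 1 of the 2 genes above 0. The laminin receptors and linkers had 8 of 10 genes above 0 and a median of 0.25, none past 1.5-fold. DMD (0.40, 0.18 to 0.62) and SGCD (0.48, 0.20 to 0.75) were among them, both counted mainly in cluster 3. That cluster held a larger share of the Tbx5 G125R/+ nuclei, and the part of this share in the ratios of DMD and SGCD was not tested.

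The microfibril and elastic fiber list had 4 of 10 genes above 0, none past 1.5-fold, and a median of -0.14. MFAP1, in the list by name alone, was among those below 0 (-0.14, -0.35 to 0.06). The proteoglycan and hyaluronan list had 7 of 15 above 0 and a median of -0.05, with DCN past 1.5-fold higher and 3 genes past it lower. Those 3 were VCAN, the glypican gene GPC3 (16 and 34 counts, -0.66, -1.64 to 0.22) and HAS2, which makes the hyaluronan that versican binds. GPC3 and HAS2 were chosen after their values were seen. HAS2 had 8 Tbx5 G125R/+ and 36 control counts in all nuclei, -1.70 (-3.08 to -0.63), and 4 and 22 in the fibroblast-like clusters, -1.90 (-4.04 to -0.48). In the collagen class HAS2 had 4 and 18 counts, and the interval of its ratio of -1.19 (-3.34 to 0.28) holds 0. ADAMTS1 and ADAMTS5, proteases that cut versican, were at 0.25 (-0.32 to 0.81) and -0.16 (-0.87 to 0.52). In the actin-severing list 2 of 5 genes were above 0, with a median of -0.40, and CFL1 (11 and 40 counts, -1.41, -2.57 to -0.47) was past 1.5-fold lower.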

How the data were processed

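Single-nucleus RNA sequencing of right atria was analysed, with 1 library per genotype. The deposited files give whole-number counts per gene for each nucleus, which the authors had filtered in the R2 platform for a minimum of 1000 reads. These counts were used as deposited. The submitters' processing notes name mm10, and no source used here names the aligner or the counter. Deposited cluster labels did not separate markers and were not used. The deposited table of the authors' p-values and fold changes between genotypes was not used.

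The 6 genes, the lists and the markers were chosen with earlier results of these data known. Levels are sums per 10000 counts with exact Poisson intervals, shares have exact binomial intervals (Clopper-Pearson), and folds and ratios have exact conditional intervals for a pair of Poisson counts. Log2 ratios added 0.5 to each count sum. All intervals and the floor of 3 counts cover counting error only. Leiden clusters (leidenalg 0.10.2) used 2000 variable genes without the 6 genes, 30 principal components, 20 neighbors and a resolution of 1, and a cluster was named when at least 3 markers of a type had 10 or more counts and lay at least 2-fold above all other nuclei. Named genes were the 6 genes, at most 6 genes by counts from each list, and the first 8 genes by likeness. PODN, GPC3 and HAS2 fall outside that rule and were chosen after their values were seen. No doublet caller was run, and nuclei with markers of more than one class were left out of the classes. The tables list no barcodes, and 0 profiles were identical between the libraries. Ratios, intervals and thinning were tested on simulated data. Scripts ran in python 3.11.15 with pandas 2.3.3, scikit-learn 1.9.0, scipy 1.17.1, numpy 2.4.6 and matplotlib 3.10.9, and the mouse annotation was GENCODE M21. Alternatives were other scalings, a larger added count, a depth minimum, other class rules and other cluster settings.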

Additional observations from a re-analysis of the deposited data

How the results depend on the processing

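No paired analysis was possible because each genotype has 1 library, and no replicate could be left out. All 96 ratios recomputed under the alternatives kept their sign and stayed within the counting interval of the value reported, 12 of them under alternatives chosen after seeing the data. For VCAN the log2 ratio in the collagen class ranged from -0.61 with at least 2 collagen counts to -0.86 under median scaling, with intervals that all hold 0. With clusters in place of that class it was -1.13 in the fibroblast-like clusters and -1.34 in clusters 4, 5 and 7 together. LAMA2 in the fibroblast-like clusters fell short of 1.5-fold at a resolution of 0.6 (0.34) and with 15 principal components (0.48), and GSN in the collagen class passed it with at least 2 collagen counts (-0.77). FBN1 in the collagen class fell short of it when other markers were allowed (0.57). With the titin class from 1 TTN count, the log2 difference of GSN between the collagen and titin classes moved from 3.39 to 2.52 (control) and from 3.61 to 2.35 (Tbx5 G125R/+). Other cluster settings moved the log2 difference between fibroblast-like and other clusters, mostly upward. It fell for FBN1 in the control, from 1.63 to 1.59 (resolution 0.6) and 1.34 (15 principal components), and with 15 principal components for FBLN1, from 1.30 to 1.29 (control) and from 1.56 to 1.49 (Tbx5 G125R/+). At a resolution of 0.6 it was 2.62 for VCAN, 2.14 for LAMA2 and 2.80 for DCN in the control, and 2.20 for FBN1 and 3.28 for DCN in the Tbx5 G125R/+ library, and with 15 principal components it was 2.67 for DCN in the control. The cause was not tested. These settings gave 2220 and 2117 fibroblast-like nuclei, of which 1624 and 1579 were shared with the 1805 of the main clusters. The background percent past 1.5-fold dropped to 3.59 higher and 5.27 lower in all nuclei with at least 50 counts. Within single clusters the intervals of VCAN and DCN reach more than 1.5-fold to either side of the ratio itself. That of VCAN in cluster 7 (-4.51 to -0.28) still leaves out 0.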
